A study of Mus musculus with 27 samples.

Results

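Newborn mouse cortex that lacked Bcl11a and Bcl11b in its Emx1-Cre lineage was compared with control cortex by bulk RNA sequencing. The members of this comparison were chosen by their labels: all 6 libraries of cortex from the day of birth (P0) that were control or Bcl11a/b-DCKO, 3 in each group, of 27 libraries in the series. Control animals are labelled wildtype. Double conditional knockout animals (DCKO) carried Emx1-Cre with both alleles of Bcl11a and both alleles of Bcl11b floxed. The labels give the C57BL/6 strain for all animals, and the tissue was cortex that had been dissected and frozen. Other libraries served for reference: 3 libraries of P0 cortex from Bcl11a-CKO animals, with Emx1-Cre and floxed Bcl11a only, and 3 control and 3 DCKO libraries each from embryonic day (E) 13.5 and E15.5. The labels give neither the sex of the animals nor the exons that are floxed.

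Bcl11a and Bcl11b, also known as Ctip1 and Ctip2, encode related zinc-finger transcription factors. Bcl11b is known for its role in layer 5 neurons, whose axons leave the cortex for brainstem and spinal cord, and it is also high in striatal projection neurons. Bcl11a acts in the identity and migration of projection neurons of deep and upper layers. Emx1-Cre acts in dorsal telencephalic progenitors, the source of cortical projection neurons and, later, of cortical glia. Interneurons that migrate in from the ventral telencephalon, blood vessels, meninges and microglia lie outside this lineage and keep both genes. A bulk library therefore mixes recombined and unrecombined cells, and in it fewer cells of a type and less RNA per cell cannot be told apart.

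The deposited P0 table of the DCKO lists 7999 genes with a depth-scaled count (CPM) in each library. Of these, 7712 are autosomal by the GENCODE annotation, and 7138 of them averaged at least 1 CPM and were tested. Other genes are not in the table, and their omission follows the p-value. By edgeR's exact test on reads recovered from the CPM, 70 listed genes lay at or under p = 1.35e-26, the others at or above 0.0517, and none in between. A gene listed here thus shows either a very large difference or little difference, and all counts below are counts among listed genes, not over the genome. The same holds for each gene list below, of which only the listed members are counted at P0. List members that did not pass therefore do not show that the list as a whole was unchanged. The smallest limma adjusted p among genes that did not pass was 0.623 and the largest among genes that passed was 0.000194.

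Several features of the P0 libraries follow the genotype or 1 library. Recovered depths were 21736542 to 25693591 reads in the controls and 16367280 to 17299669 reads in the DCKO. Xist, the transcript of the inactive X chromosome, was at 2431 to 3148 CPM in the DCKO and 1.21 to 2.07 CPM in the controls. Control replicate 3 also held almost no Y-linked transcripts (Ddx3y 0.138 CPM, against 63.8 and 75.9 CPM in control replicates 1 and 2). The mitochondrial gene mt-Atp8 was at 536 to 604 CPM in the DCKO and 15.3 to 17.5 CPM in the controls, while mt-Atp6, which overlaps it, was at 1296 to 1369 and 1306 to 1479 CPM. The alpha-globin gene Hba-a2 was at 147 to 183 CPM in the DCKO, and 144 to 176 CPM in the Bcl11a-CKO, against 0.782 to 1.64 CPM in the controls. The beta-globin gene Hbb-bs did not follow it, at 173 to 293 CPM in the controls and 158 to 232 CPM in the Bcl11a-CKO. Y-linked transcripts were present in Bcl11a-CKO replicate 1 and near 0 in replicates 2 and 3 (Ddx3y 50.5, 0 and 0.042 CPM). As control replicate 3 held almost no Xist and almost no Y-linked transcripts, its sex cannot be read from these genes. Xist followed the genotype whether or not a control held Y-linked transcripts. Sex and any difference in library preparation or processing therefore cannot be told apart from each other or from genotype at P0. Meningeal and fibroblast genes varied by library: their 11 tested members summed to 45.4, 857 and 308 CPM in controls 1 to 3 and to 521, 33.8 and 32.0 CPM in DCKO 1 to 3. These non-autosomal and globin genes were singled out after their values were seen. The general marker of cortical excitatory neurons Neurod2 was high in all 6 libraries (514 ± 99.1 and 491 ± 25.9 CPM, mean ± SD, n = 3 each).

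Bcl11b, 1 of the genes targeted, was lower in every DCKO library. Bcl11b (ENSMUSG00000048251, chromosome 12, 107910403 to 108003602, GRCm38/mm10) stood at 239.5, 176 and 197 CPM in the controls and 34.1, 41.4 and 40.1 CPM in the DCKO. The groups did not overlap, and the mean fell 5.30-fold (log2 difference -2.37 ± 0.12 (SE), limma, adjusted p = 7.62e-06). Reads remained at 18.9% of the control level. The count covers the whole gene, so transcripts that lack only the floxed part and transcripts from unrecombined cells both count. Bcl11a is not listed in the table and was not analysed here at P0. In the embryo, Bcl11a was at 486 ± 52.6 CPM in the control and 300.1 ± 16.4 CPM in the DCKO (log2 difference -0.70 ± 0.11, adjusted p = 0.00101) at E13.5 by edgeR. At E15.5 it was at 751 ± 7.83 CPM in the control and 683 ± 27.1 CPM in the DCKO (log2 difference -0.12 ± 0.12, adjusted p = 0.563) and did not pass. The labels do not name the floxed exons, and reads from the rest of the gene still count, so for Bcl11a these values check nothing in the libraries labelled DCKO. Bcl11b fell at both embryonic ages, with 222 ± 93.9 CPM in the control and 50.7 ± 6.39 CPM in the DCKO (log2 difference -2.14 ± 0.25, adjusted p = 0.000121) at E13.5 and 329.7 ± 9.25 CPM in the control and 109 ± 8.57 CPM in the DCKO (log2 difference -1.59 ± 0.26, adjusted p = 0.000674) at E15.5.

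Among the 7138 genes tested, 65 differed between DCKO and control (0.911%, limma on log2(CPM + 1), Benjamini-Hochberg adjusted p under 0.05). The sign is DCKO minus control throughout. Falls outnumbered rises: 51 genes fell (0.714%) and 14 rose (0.196%). The log2 difference ran from -5.81 to -1.03 with a median of -2.43 among the genes that fell, and from 1.51 to 6.15 with a median of 2.48 among those that rose. Both medians stay the same with the 3 genes that are at 0 in 1 group placed at the bounds given below. Over all genes tested the median was 0.0051. Log2 differences of genes near 0 CPM in 1 group depend on the pseudocount: with 0.1 or 5 CPM in place of 1, Rxfp1 went from -4.11 to -5.23 or -2.53 and Fam19a1 from -3.77 to -5.12 or -2.13. In all 65 genes every DCKO library lay outside the range of the controls, which 15.3% of all tested genes did. Of the 65, 57 are protein coding and 8 are pseudogenes or noncoding transcripts. Exonic bases are shared with another gene by 25 of them (38.5%, against 39.2% of all genes tested), and since the strand setting of the counting is not given in the sources used here, reads of such neighbours may be mixed.

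**Figure D1:**
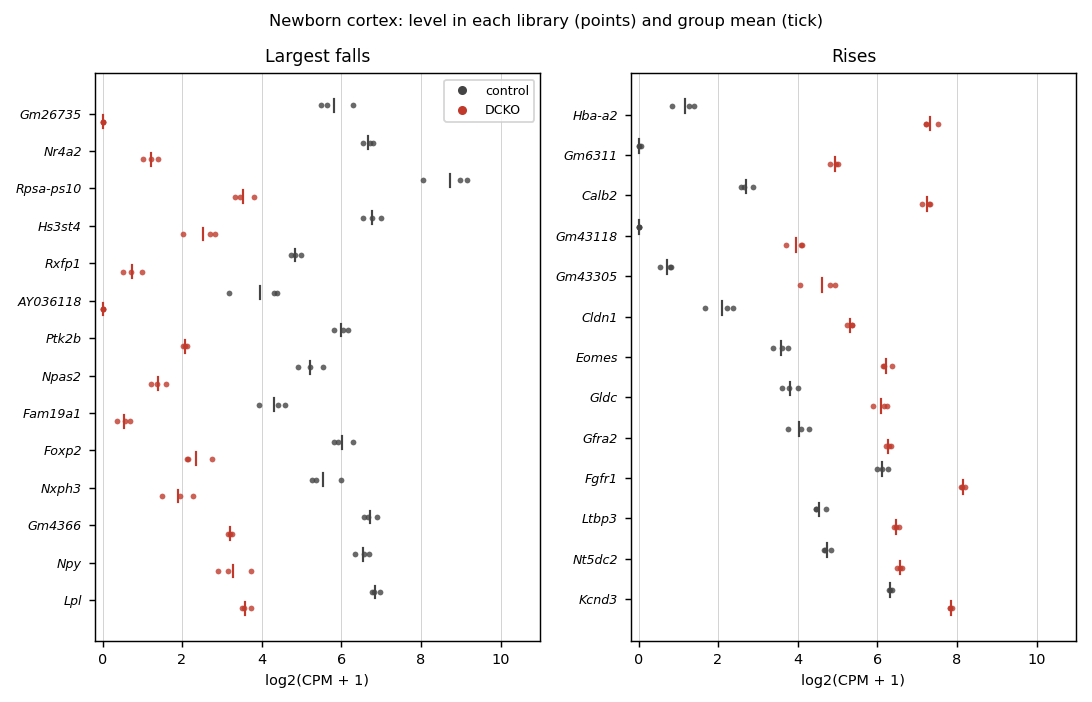
Level of the genes that fell most (left) and of the genes that rose (right) in newborn cortex, for genes reported here, as log2(CPM + 1) on the x axis, with 1 point per library (grey control, red DCKO, 3 each) and a tick at the group mean. In every row the red points lie apart from the grey ones, and the spread within a group is small beside the gap for most genes.

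Most listed genes of layer 6 corticothalamic neurons, the cells that project from deep cortex to thalamus, were much lower in the DCKO. A layer 6 list has 19 entries, of which 8 are listed at P0. Of these 8, 7 fell, against 0.714% of all genes tested, and 1, Crym, did not pass (log2 difference 0.24 ± 0.36). Genes with p-values in the omitted range are not listed, so these counts do not describe the class. The median log2 difference of the 8 members was -2.63. Their summed level was 839 to 1093 CPM in the controls and 170 to 175 CPM in the DCKO. Hs3st4, a heparan sulfate 3-O-sulfotransferase gene (chromosome 7, 123982869 to 124398989), stood at 127, 92.7 and 107 CPM in the controls and 3.06, 5.50 and 6.13 CPM in the DCKO, a log2 difference of -4.25 ± 0.21. Foxp2, a forkhead transcription factor gene of deep layers (chromosome 6, 14901349 to 15441977), stood at 59.2, 55.7 and 77.3 CPM in the controls and 5.76, 3.36 and 3.41 CPM in the DCKO, a difference of -3.67 ± 0.20. Tle4, a Groucho family corepressor gene widely used to mark corticothalamic neurons, was at 179.7, 132 and 149.6 CPM in the controls and 20.7, 20.4 and 19.9 CPM in the DCKO (-2.85 ± 0.11). DCKO levels of Tle4 lay within 1 CPM of each other, while the controls spread from 132 to 180 CPM. The vesicle protein gene Syt6 fell from 89.3 ± 9.39 to 13.03 ± 0.0905 CPM (mean ± SD, n = 3 each, -2.68 ± 0.10). Lmo3, a LIM-only transcriptional cofactor gene, fell from 256 ± 41.2 to 55.5 ± 3.04 CPM (-2.17 ± 0.12), and Sox5, a transcription factor gene of early deep-layer neurons, from 211 ± 24.97 to 51.7 ± 4.42 CPM (-2.002 ± 0.10). Hs3st4, Syt6, Ppp1r1b and Sox5 share exonic bases with a neighbouring transcript.

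Listed genes known from striatal projection neurons fell as well. A striatal list has 18 entries, of which 3 are listed at P0. All 3 fell, Foxp1 and Ppp1r1b among them, against 0.714% of all genes tested. Foxp1, a forkhead gene also expressed in cortical projection neurons, stood at 358, 238 and 332 CPM in the controls and 42.8, 38.2 and 38.8 CPM in the DCKO (log2 difference -2.90 ± 0.14). The level of Foxp1 dropped 7.75-fold and the DCKO libraries agree within a few CPM. Ppp1r1b encodes the phosphatase inhibitor DARPP-32 and is also a member of the layer 6 list. Its values were 95.1, 65.2 and 88.5 CPM in the controls and 13.02, 13.5 and 12.02 CPM in the DCKO (-2.58 ± 0.14). Drd1, Drd2 and other defining striatal genes are not in the table and were not analysed here, so the part of striatal tissue in these values was not tested.

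Nr4a2 had the largest fall of any protein-coding gene tested. It encodes the orphan nuclear receptor Nurr1, a marker of subplate, layer 6b and claustral neurons (chromosome 2, 57106830 to 57124003). Its level was 110.3, 104 and 91.8 CPM in the controls and 1.02, 1.34 and 1.62 CPM in the DCKO, a 76.8-fold difference of means (log2 -5.47 ± 0.14, limma, adjusted p = 3.5e-07). No DCKO library reached 2 CPM. The other 3 listed members of the subplate list did not pass: Ctgf was at 21.5 ± 0.569 CPM in the control and 21.9 ± 1.59 CPM in the DCKO (log2 difference 0.02 ± 0.10), Lpar1 differed by 0.01 ± 0.40 and Svil by -0.36 ± 0.39. The subplate list has 16 entries, of which these 4 are listed at P0. Genes with p-values in the omitted range are not listed, so a count of 1 in 4 does not describe the class.

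Listed upper-layer genes split. Of 25 entries on the upper-layer list, 6 were tested. Of these, 3 fell, against 0.714% of all genes tested, and 3 did not pass, with a median of -1.23. Genes with p-values in the omitted range are not listed, so these counts do not describe the class. Rorb, a nuclear receptor gene of layer 4, stood at 67.2, 62.5 and 79.7 CPM in the controls and 10.1, 9.35 and 8.44 CPM in the DCKO (log2 difference -2.78 ± 0.12). Lpl, the lipoprotein lipase gene, which microglia also express, stood at 113, 108 and 125 CPM in the controls and 10.3, 12.3 and 10.7 CPM in the DCKO (-3.27 ± 0.10). The microglial genes P2ry12 and Cd53 did not pass (log2 differences -0.34 ± 0.26 and 0.27 ± 0.27). Mef2c, an activity-regulated transcription factor gene of maturing neurons, fell from 1262 ± 87.6 to 280.1 ± 14.03 CPM (-2.17 ± 0.08) and was the most abundant transcription factor gene to fall. Among those that did not pass, Pou3f2 was at 249 ± 54.4 CPM in the control and 280.4 ± 21.4 CPM in the DCKO (0.19 ± 0.15).

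No listed gene of layer 5 subcerebral projection neurons passed the test, of 7. Fezf2, the transcription factor gene that specifies these neurons, stood at 70.6, 49.7 and 48.3 CPM in the controls and 54.01, 51.4 and 53.5 CPM in the DCKO, with overlapping groups and a log2 difference of -0.06 ± 0.14 (95% interval -0.38 to 0.26). The list median was 0.02. Genes of this class with p-values in the omitted range are not in the table, so a count of 0 among listed genes does not describe the class.

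On a list of cortical transcription factor genes, 7 of 17 tested fell and none rose, against 0.714% and 0.196% of all genes tested. The 7 were Nr4a2, Foxp2, Foxp1, Rorb, Lmo3, Mef2c and Sox5. The 10 that did not pass include the most abundant after Mef2c. Sox11 was at 676 ± 81.1 CPM in the control and 739.96 ± 7.33 CPM in the DCKO (log2 difference 0.14 ± 0.10), and Bhlhe22 differed by 0.08 ± 0.08. Npas2, a bHLH-PAS gene related to Clock, is not on that list and fell as well. It stood at 29.3, 36.3 and 45.1 CPM in the controls and 1.32, 1.59 and 2.02 CPM in the DCKO (-3.83 ± 0.19). Eomes, a transcription factor gene that is also not on that list, rose and is described below.

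Progenitor genes passed the test in 1 member, Eomes. Eomes encodes Tbr2, the T-box factor of intermediate progenitors, and stood at 12.4, 9.34 and 11.2 CPM in the controls and 81.97, 69.8 and 70.6 CPM in the DCKO (chromosome 9, 118478212 to 118486132). It rose 6.74-fold (log2 difference 2.65 ± 0.12, limma, adjusted p = 4.13e-06), with every DCKO library above every control. Eomes shares exonic bases with the transcript Gm33460. Hes6, the other listed member of the intermediate progenitor list, did not pass (0.19 ± 0.14). None of 4 radial glia genes passed, with Ptprz1 at -0.04 ± 0.08, Tnc at -0.18 ± 0.16 and Sox2 at 0.20 ± 0.08. None of 22 cell cycle genes passed either, and their median difference was 0.11. Genes with p-values in the omitted range are not listed, so these counts do not describe progenitor or cell cycle genes as a class.

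Calb2 and Reln, both on the Cajal-Retzius and interneuron lists, changed in opposite directions. Calb2 encodes the calcium-binding protein calretinin (chromosome 8, 110137502 to 110168210). It stood at 6.31, 4.94 and 5.25 CPM in the controls and 158, 139 and 158 CPM in the DCKO, 27.6-fold higher (log2 difference 4.56 ± 0.11, limma, adjusted p = 3.5e-07). Reln, the gene of the secreted guidance protein reelin, fell from 439 ± 63.9 to 121 ± 5.38 CPM (-1.84 ± 0.10). The other 2 listed Cajal-Retzius genes, Cacna2d2 and Nhlh2, did not pass (0.09 ± 0.12 and 0.26 ± 0.14). Of 8 listed members of the interneuron list, Npy fell beside Reln, against 0.714% of all genes tested. Npy encodes the peptide transmitter neuropeptide Y and stood at 94.03, 80.3 and 102 CPM in the controls and 12.4, 7.88 and 6.53 CPM in the DCKO (-3.27 ± 0.20). The other 5 did not pass, with Dlx2 at 0.12 ± 0.09 and Erbb4 at -0.11 ± 0.12. Calb2 is also a marker of thalamic and of some interneuron populations. The listed thalamic gene Tcf7l2 was at 2.54 ± 0.819 CPM in the control and 2.61 ± 1.66 CPM in the DCKO.

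**Figure D2:**
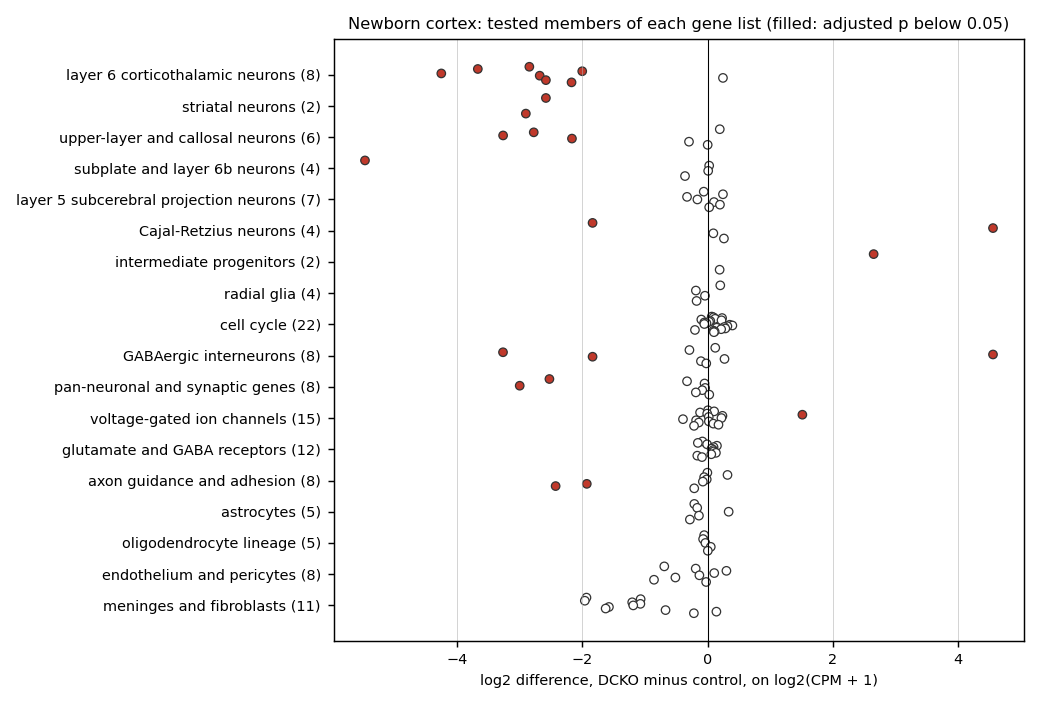
Log2 difference between DCKO and control newborn cortex (x axis, on the log2(CPM + 1) scale) for each tested member of 18 gene lists (rows, with the number of members plotted, which are those reported here), filled where the limma adjusted p was below 0.05. The filled points of layer 6 and striatal genes lie at -2.002 or lower, while all points of the layer 5, radial glia, cell cycle and receptor lists are open and lie near 0. Genes with p-values in the omitted range are not plotted.

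The list of axon guidance and adhesion genes has 51 entries, of which 8 were tested at P0. Of these, 2 fell, Ephb1 and Epha7, against 0.714% of all genes tested, and 6 did not pass (median -0.07). Genes with p-values in the omitted range are not listed, so these counts do not describe the class. The receptor and ligand genes described beside Ephb1 and Epha7 were picked from the genes past the test and form no tested group. Rxfp1, a relaxin receptor gene, stood at 30.6, 27.5 and 25.5 CPM in the controls and 0.420, 0.978 and 0.636 CPM in the DCKO (log2 difference -4.11 ± 0.17), and each DCKO library was below 1 CPM. Nxph3, the gene of the neurexin ligand neurexophilin 3, stood at 62.5, 37.3 and 40.4 CPM in the controls and 1.80, 2.87 and 3.87 CPM in the DCKO (-3.63 ± 0.25). Fam19a1, which encodes a small secreted chemokine-like protein, stood at 20.4, 22.9 and 14.2 CPM in the controls and 0.480, 0.611 and 0.289 CPM in the DCKO (-3.77 ± 0.21), and its relative Fam19a2 fell from 224 ± 21.3 to 33.2 ± 7.82 CPM (-2.73 ± 0.15). Of the ephrin receptor genes, Ephb1 fell from 131 ± 19.6 to 23.4 ± 2.49 CPM (-2.43 ± 0.12) and Epha7 from 128 ± 0.757 to 33.5 ± 6.99 CPM (-1.93 ± 0.14). Epha4 did not pass (-0.08 ± 0.12). Outside that list, Rgma, a repulsive guidance molecule gene, fell from 241 ± 36.2 to 64.02 ± 4.41 CPM (-1.89 ± 0.11) and Islr2, a leucine-rich repeat gene of growing axons, from 673 ± 117 to 149 ± 32.6 CPM (-2.18 ± 0.18). Adgrb3, an adhesion G protein-coupled receptor gene, had nearly equal controls (138, 140 and 136 CPM) and fell by 1.60 on the log2 scale.

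The list of pan-neuronal and synaptic genes has 37 entries, of which 8 were tested at P0. Of these, 2 fell, Nrgn and Nefl, against 0.714% of all genes tested, and 6 did not pass (median -0.14). The signalling genes described beside Nrgn were picked from the genes past the test and form no tested group. Ptk2b, the gene of the calcium-activated tyrosine kinase Pyk2, stood at 70.8, 64.8 and 54.8 CPM in the controls and 3.24, 3.06 and 3.35 CPM in the DCKO (log2 difference -3.93 ± 0.13). Nrgn encodes neurogranin, a postsynaptic calmodulin-binding protein, and fell from 149 ± 20.2 to 17.7 ± 2.49 CPM (-3.0004 ± 0.13). Adcy1, a calmodulin-stimulated adenylyl cyclase gene, fell from 949.7 ± 73.2 to 254 ± 30.2 CPM (-1.90 ± 0.10). The regulatory kinase A subunit gene Prkar2b (-1.56 ± 0.08) and the guanylyl cyclase subunit gene Gucy1a3 (-1.77 ± 0.10) fell as well. Auxiliary receptor subunit genes fell in Neto2, of kainate receptors (-2.15 ± 0.08), and Kctd12, of GABA-B receptors (-1.69 ± 0.08). Of 32 entries on the list of the glutamate and GABA receptors themselves, 12 were tested. None of the 12 passed, with Gria2 at -0.08 ± 0.10 and Gabbr1 at -0.09 ± 0.08. Receptor genes with p-values in the omitted range are not listed, so this count does not describe the receptors. In the embryo, 2 of 28 tested rose and 1 fell at E13.5, and 6 rose and 4 fell at E15.5. Over all genes tested, 3.81% rose and 3.24% fell at E13.5, and 8.26% rose and 7.75% fell at E15.5. Plcxd2, a phospholipase-like gene, fell from 130.2 ± 16.4 to 15.7 ± 2.12 CPM (-2.97 ± 0.13).

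Map1b and Tubb2a, both genes of the microtubule cytoskeleton, were the most abundant genes that fell and had the smallest log2 differences. Map1b, a microtubule-associated protein gene of growing axons, stood at 2997, 2819 and 2633 CPM in the controls and 1335, 1402 and 1394 CPM in the DCKO (-1.03 ± 0.09). Tubb2a, a beta-tubulin gene, stood at 2622, 2199 and 2166 CPM in the controls and 1074, 1068 and 1029.6 CPM in the DCKO (-1.13 ± 0.10). The DCKO means were 48.9% and 45.4% of the control means, and the groups did not overlap for either gene. Nefl, the neurofilament light chain gene, fell more, from 62.9 ± 10.6 to 10.1 ± 1.42 CPM (-2.53 ± 0.15). Dync1i1, a dynein intermediate chain gene, fell from 217 ± 28.8 to 49.4 ± 0.655 CPM (-2.11 ± 0.10), Kif26a, a kinesin family gene, from 134 ± 22.3 to 36.7 ± 1.13 CPM (-1.83 ± 0.12), and Sybu, which links vesicles to kinesin, from 283 ± 28.3 to 92.1 ± 3.60 CPM (-1.61 ± 0.09). The remaining protein-coding genes that fell were Pdzd2, AI593442, Nwd2, Osbpl1a, Prickle2 and Fam49a, with log2 differences of -2.43, -2.31, -2.19, -2.05, -1.52 and -1.46.

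Of the genes that rose, Eomes, Calb2, Kcnd3 and Hba-a2 are on a gene list, and the others are on none and are described singly. Fgfr1, a fibroblast growth factor receptor gene (chromosome 8, 25513654 to 25575718), stood at 75.9, 67.9 and 62.98 CPM in the controls and 278, 272 and 296 CPM in the DCKO (log2 difference 2.02 ± 0.08). Gfra2, the receptor gene for neurturin, stood at 18.4, 15.8 and 12.6 CPM in the controls and 79.7, 73.4 and 77.1 CPM in the DCKO (2.24 ± 0.13). Ltbp3, which encodes a protein that binds latent TGF-beta in the matrix, stood at 21.003, 25.03 and 21.1 CPM in the controls and 92.1, 84.7 and 87.7 CPM in the DCKO (1.93 ± 0.09). In all 3 genes the lowest DCKO library was over 3 times the highest control. Kcnd3, the gene of the A-type potassium channel Kv4.3, was the 1 gene of 15 tested voltage-gated channel genes to pass and stood at 79.4, 80.9 and 77.8 CPM in the controls and 233, 227 and 225 CPM in the DCKO (1.51 ± 0.06). The other 14 had log2 differences of -0.39 to 0.24. Cldn1, a tight junction gene (chromosome 16, 26356642 to 26371841), stood at 2.16, 4.16 and 3.68 CPM in the controls and 36.4, 40.3 and 39.8 CPM in the DCKO, 11.7-fold higher (3.23 ± 0.19). Gldc, the glycine decarboxylase gene, was at 11.1, 15.2 and 12.7 CPM in the controls and 58.8, 74.3 and 70.5 CPM in the DCKO (2.30 ± 0.14). Nt5dc2, a nucleotidase-domain gene, was at 27.4, 24.6 and 24.5 CPM in the controls and 97.7, 93.7 and 88.7 CPM in the DCKO (1.83 ± 0.08). Endothelial genes did not pass (0 of 8, median -0.16), nor did 11 meningeal genes (median -1.19).

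Genes at or near 0 in 1 whole group were mostly pseudogenes and noncoding transcripts. Gm26735, a long noncoding transcript that shares exonic bases with Sox4, was at 49.2, 43.98 and 77.6 CPM in the controls and 0 in each DCKO library, at least 955-fold lower against a floor of 3 reads over the group. AY036118, a noncoding transcript that overlaps Gm42418, was at 18.7, 19.8 and 8.10 CPM in the controls and 0 in the DCKO, at least 261-fold lower. Gm43118, an antisense transcript at Pitpnb, was at 0 in the controls and 15.9, 16.3 and 12.02 CPM in the DCKO, at least 344-fold higher. The processed pseudogenes Rpsa-ps10, Gm4366 and Rps2-ps10 fell, with 569, 506 and 263 CPM in the controls and 12.9, 9.04 and 9.88 CPM in the DCKO for Rpsa-ps10. Gm4366 stood at 119, 93.8 and 100.02 CPM in the controls and 8.52, 7.88 and 8.15 CPM in the DCKO. The pseudogene Gm6311 went from 0.044, 0 and 0 to 30.005, 31.2 and 27.2 CPM, and the transcript Gm43305 from 0.750, 0.739 and 0.460 to 15.8, 29.4 and 26.8 CPM. Hba-a2 had the largest rise of a protein-coding gene, a log2 difference of 6.15 ± 0.17. Pseudogenes and Hba-a2, which has a near-identical copy, can share reads with other loci, so their values are uncertain.

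The same 65 genes were then read in embryonic cortex, in other animals and in a count table with 34745 genes. Of the 65, 59 could be tested there (edgeR's quasi-likelihood test, 14947 genes, n = 3 and 3 at E13.5, n = 2 and 3 at E15.5 with the control libraries R and L of 1 title number summed). At E15.5, 39 of 59 passed, all in the direction seen at P0: 32 fell and 7 rose. Over all genes 16% passed, with 7.75% falling and 8.26% rising. At E13.5, 16 of 59 passed, against 7.05% of all genes. Of the 16, 13 fell and 2 rose as at P0, while Ephb1 went the other way. Over all genes 3.24% fell and 3.81% rose. The median log2 difference of the P0 falls was -0.42 at E13.5 and -1.48 at E15.5, and that of the P0 rises 0.10 and 0.84, against -0.01 and -0.02 for all genes tested.

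**Figure D3:**
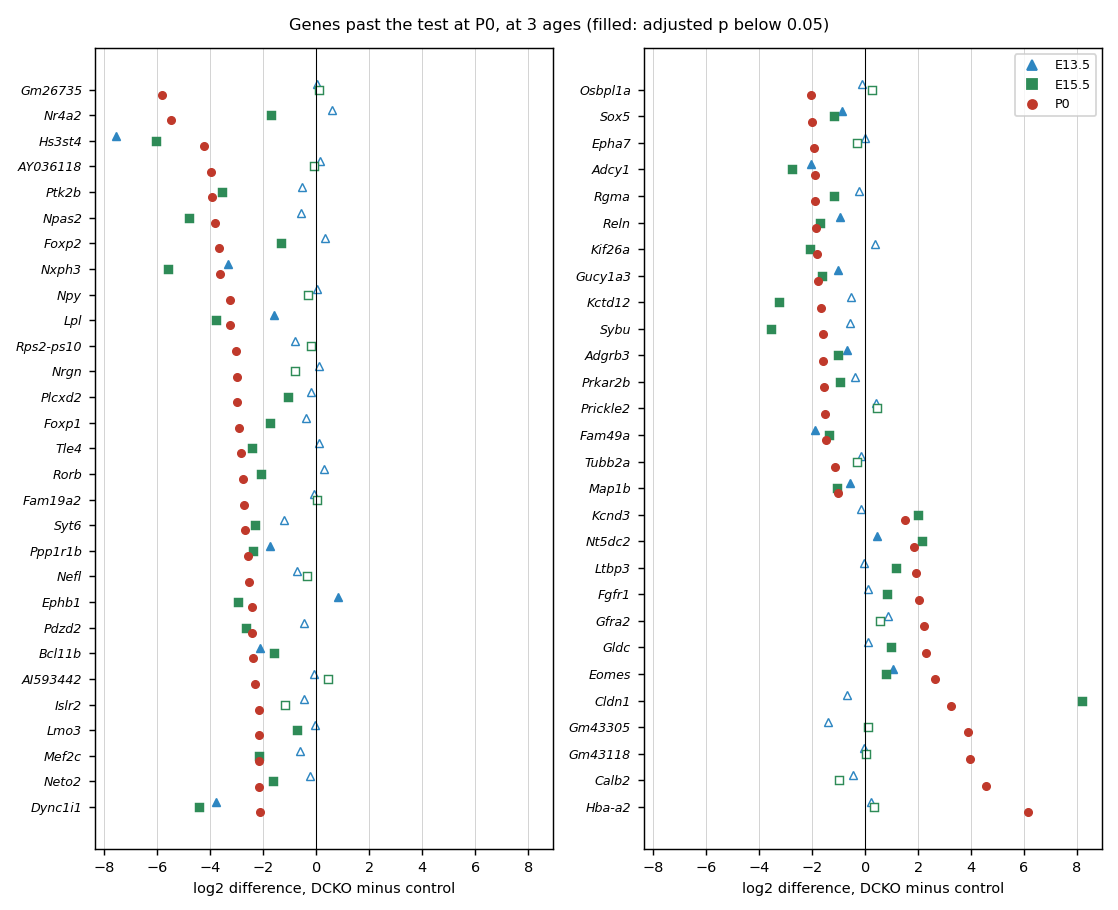
Log2 difference between DCKO and control (x axis) at E13.5 (triangles), E15.5 (squares) and P0 (circles) for genes reported here that passed the test at P0 and could be tested in the embryo, filled where the adjusted p was below 0.05. Of the 46 genes that fell at P0 and were tested in the embryo, 32 passed at E15.5 and 13 fell past the test at E13.5, and Gm26735 and Hba-a2 lie near 0 in the embryo. P0 values are on the log2(CPM + 1) scale and embryonic values are fitted by edgeR, so their sizes are not compared.

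Layer 6 genes were lower in the embryonic DCKO as well. Hs3st4 had 62 counts in the E13.5 controls and 0 in the DCKO, at least 23.5-fold lower. By E15.5 the gap was 108 ± 13.3 CPM in the control and 1.58 ± 0.138 CPM in the DCKO (log2 difference -6.07 ± 0.46, edgeR, adjusted p = 2.66e-06). Tle4 was 60.7 ± 7.87 CPM in the control and 66.2 ± 5.04 CPM in the DCKO at E13.5 and fell from 211 ± 32.6 to 38.7 ± 2.29 CPM at E15.5 (-2.43 ± 0.14). Ppp1r1b fell at both ages (-1.75 ± 0.43 and -2.40 ± 0.39), as did Sox5 (-0.86 ± 0.20 and -1.17 ± 0.22). Foxp2 and Syt6 passed at E15.5 (-1.34 ± 0.26 and -2.33 ± 0.37) and not at E13.5 (0.31 ± 0.26 and -1.23 ± 0.50). Over the whole layer 6 list, 7 of 17 tested genes fell at E13.5 and 15 of 17 at E15.5, with list medians of -0.86 and -2.33 and no gene rising at either age. The layer 5 list, also whole in that table, had 3 of 18 falling at E13.5, and 5 falling and 4 rising at E15.5. On the striatal list 1 of 12 fell and 1 rose at E13.5, and 4 fell and 2 rose at E15.5. Over all genes tested, 3.24% fell and 3.81% rose at E13.5, and 7.75% fell and 8.26% rose at E15.5. The striatal counts at E13.5 are too small to be told apart from these shares.

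Nr4a2, Rorb and Mef2c passed at E15.5 and not at E13.5. Nr4a2 was 31.2 ± 10.01 CPM in the control and 47.02 ± 10.1 CPM in the DCKO at E13.5, where it did not pass, and fell from 31.6 ± 0.804 to 9.70 ± 2.16 CPM at E15.5 (-1.70 ± 0.26). Rorb did not pass at E13.5 (0.30 ± 0.25) and fell at E15.5 (-2.09 ± 0.23). Mef2c did the same (-0.61 ± 0.26 and -2.16 ± 0.24), and Lpl fell at both ages (-1.60 ± 0.16 and -3.78 ± 0.19). These genes were picked by their fall at P0. On the whole upper-layer list, 4 of 22 tested genes rose and 6 fell at E13.5 (median 0.04). At E15.5, 6 rose and 5 fell (median -0.05). On the subplate list, 2 of 12 tested genes rose and 2 fell at E13.5 (median 0.14). At E15.5, 1 rose and 5 fell (median -0.42). Over all genes tested, 3.81% rose and 3.24% fell at E13.5, and 8.26% rose and 7.75% fell at E15.5. Ephb1, the axon guidance receptor gene, rose at E13.5 from 18.6 ± 1.10 to 32.9 ± 2.22 CPM (0.81 ± 0.14, adjusted p = 0.00209) and fell at E15.5 from 92.2 ± 7.46 to 11.8 ± 2.88 CPM (-2.94 ± 0.15). On the whole axon guidance and adhesion list, 13 of 49 tested genes rose and 6 fell at E13.5 (median 0.21). At E15.5, 13 rose and 5 fell (median 0.23). A test of the change between the 2 ages passed for 20 of the 59 genes, 17 of them lower and 3 higher at E15.5 than at E13.5, against 3.87% of all genes tested. Reln and Map1b were among the genes that fell at all 3 ages. Differences of Reln were -0.95 ± 0.13 at E13.5, -1.70 ± 0.14 at E15.5 and -1.84 ± 0.10 at P0.

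Among the other genes that fell at P0, some fell in the embryo and some did not pass. At E15.5 Dync1i1 fell from 167 ± 29.8 to 7.71 ± 1.56 CPM (-4.43 ± 0.32), Nxph3 from 72.4 ± 7.78 to 1.42 ± 0.324 CPM (-5.60 ± 0.36) and Adcy1 from 327 ± 54.2 to 47.6 ± 7.29 CPM (-2.76 ± 0.25), and these 3 genes had fallen at E13.5 as well. Sybu fell at E15.5 from 238 ± 5.26 to 20.3 ± 3.72 CPM (-3.54 ± 0.27) and Kctd12 from 282 ± 12.4 to 29.4 ± 3.46 CPM (-3.25 ± 0.19), and neither passed at E13.5. Tubb2a, Nefl, Nrgn and Epha7 did not pass at E15.5 (-0.32 ± 0.18, -0.34 ± 0.28, -0.81 ± 0.41 and -0.33 ± 0.16), nor did Fam19a2, Islr2, Osbpl1a, Prickle2 and AI593442 (0.02 ± 0.40, -1.17 ± 0.81, 0.25 ± 0.16, 0.43 ± 0.31 and 0.46 ± 0.37). Npas2 had 76 counts in the E15.5 controls and 3 in the DCKO, a ratio of 32.3 with a 95% counting interval of 10.6 to 160.0. Rxfp1, too low for the test, had 36 and 2 counts at E15.5, a ratio of 23.0 (5.91 to 197.0). These intervals cover counting error only.

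Among the genes that rose, Eomes was higher in the DCKO at each age. It went from 395 ± 81.6 to 815 ± 47.2 CPM at E13.5 (1.04 ± 0.11) and from 226 ± 3.87 to 390.2 ± 34.5 CPM at E15.5 (0.80 ± 0.13). On the intermediate progenitor list, 8 of 13 tested genes rose at E13.5, and 7 rose and 1 fell at E15.5. On the radial glia list, 2 of 16 tested genes rose and 3 fell at E13.5, and 1 rose and 3 fell at E15.5. Of 26 tested cell cycle genes, none passed at E13.5, and 6 fell and none rose at E15.5 (median -0.39). Over all genes tested, 3.81% rose and 3.24% fell at E13.5, and 8.26% rose and 7.75% fell at E15.5. Nt5dc2 rose at both ages (0.44 ± 0.07 and 2.14 ± 0.09). Fgfr1, Ltbp3, Gldc and Kcnd3 rose at E15.5 (0.84 ± 0.07, 1.18 ± 0.23, 0.96 ± 0.19 and 1.98 ± 0.45) and did not pass at E13.5. The E15.5 DCKO libraries spread widely for Kcnd3, with an SD of 65.99 CPM around a mean of 82.9 CPM. Cldn1 had 0 counts in the E15.5 controls and 101 in the DCKO, at least 26.4-fold higher. Calb2, 27.6-fold higher at birth, was 6.94 ± 1.91 CPM in the control and 3.45 ± 3.08 CPM in the DCKO at E15.5 and did not pass at either embryonic age.

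Some of the largest P0 differences did not pass the test in the embryo. Gm26735 was 329 ± 25.9 CPM in the control and 336 ± 24.1 CPM in the DCKO at E13.5 and 654 ± 21.7 CPM in the control and 689 ± 17.04 CPM in the DCKO at E15.5, and it was at 0 in the DCKO at birth. Hba-a2 was 70.6 ± 7.48 CPM in the control and 88.7 ± 15.04 CPM in the DCKO at E15.5. Gm43118, listed at 0 in the P0 controls, was 32.9 ± 0.279 CPM in the control and 33.5 ± 5.96 CPM in the DCKO at E15.5. Npy was 10.7 ± 0.0919 CPM in the control and 8.57 ± 0.884 CPM in the DCKO at E15.5. None of these 4 genes passed at E13.5 or E15.5. Embryonic groups held both Xist-high and Xist-low libraries, unlike the P0 groups, and with this as a covariate, an alternative added after seeing the data, 16 and 39 genes again passed at E13.5 and E15.5.

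P0 cortex of the Bcl11a-CKO, in which Bcl11b is not floxed, gives the level with 1 gene targeted. Of the 65 genes, 29 are listed in its table, whose control values are identical to those in the DCKO table. The 36 others were not analysed here in the Bcl11a-CKO. Both mutants were compared with the same controls, and the DCKO libraries had already chosen the 65 genes, so the levels are given side by side. In a limma fit over the 9 libraries, 16 of the 29 were lower in the DCKO than in the Bcl11a-CKO (2.5% of all genes tested), 5 were higher (1.41%) and 8 did not pass. Of the 5, only Calb2 is protein coding. The others are the pseudogenes Rpsa-ps10, Gm4366 and Gm6311 and the antisense transcript Gm43118. Rpsa-ps10 and Gm4366 were below the control in both mutants, at 2.02 and 1.77 CPM in the Bcl11a-CKO and 10.6 and 8.18 CPM in the DCKO. Over all 6668 genes tested 261 passed (3.91%), a number that dropped to 24 to 35 when DCKO replicate 2 or 3 or any 1 Bcl11a-CKO library was left out, and to 199 without DCKO replicate 1. The 29 genes gave 14 to 16 lower and 5 or 6 higher in each of these fits.

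Several layer and signalling genes stood nearer to the control than to the DCKO in the Bcl11a-CKO. Tle4 was at 122, 120.5 and 124 CPM in the Bcl11a-CKO, between the controls (154 ± 24.2 CPM) and the DCKO (20.3 ± 0.414 CPM), and it was lower in the DCKO than in the Bcl11a-CKO with a difference of -2.53 ± 0.10 (adjusted p = 1.65e-07, limma). Rorb was at 62.3, 55.6 and 52.4 CPM in the Bcl11a-CKO (-2.49 ± 0.11) and Ptk2b at 50.9, 46.6 and 47.3 CPM (-3.55 ± 0.10). Fam19a1, at 19.1, 18.5 and 16.6 CPM, and Npy, at 87.96, 73.4 and 96.002 CPM, overlapped the controls and differed by -3.71 ± 0.18 and -3.16 ± 0.19 (DCKO minus Bcl11a-CKO). Sybu, Kctd12, Kif26a and Dync1i1 were also lower in the DCKO, with differences of -1.74 ± 0.07, -1.86 ± 0.09, -1.81 ± 0.11 and -1.96 ± 0.09.

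In a second group the Bcl11a-CKO stood near the DCKO. Nr4a2 was at 1.92, 2.23 and 1.84 CPM in the Bcl11a-CKO, and the difference from the DCKO did not pass (-0.37 ± 0.14, adjusted p = 0.123). Hba-a2 and Gldc were at 164 ± 17.6 CPM and 52.8 ± 2.02 CPM in the Bcl11a-CKO and did not pass. Reln lay between, at 163, 178 and 181 CPM, and was lower in the DCKO, with a difference of -0.52 ± 0.09 (adjusted p = 0.0227). Calb2 was intermediate in the rising direction, at 58.3, 62.02 and 54.7 CPM in the Bcl11a-CKO against 152 ± 11.3 CPM in the DCKO (1.36 ± 0.10). Gm26735 split the Bcl11a-CKO libraries, at 28.7, 89.3 and 0 CPM, of which the third is at 0 as in the DCKO. A p above the threshold does not show that the mutants are alike for these genes.

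**Figure D4:**
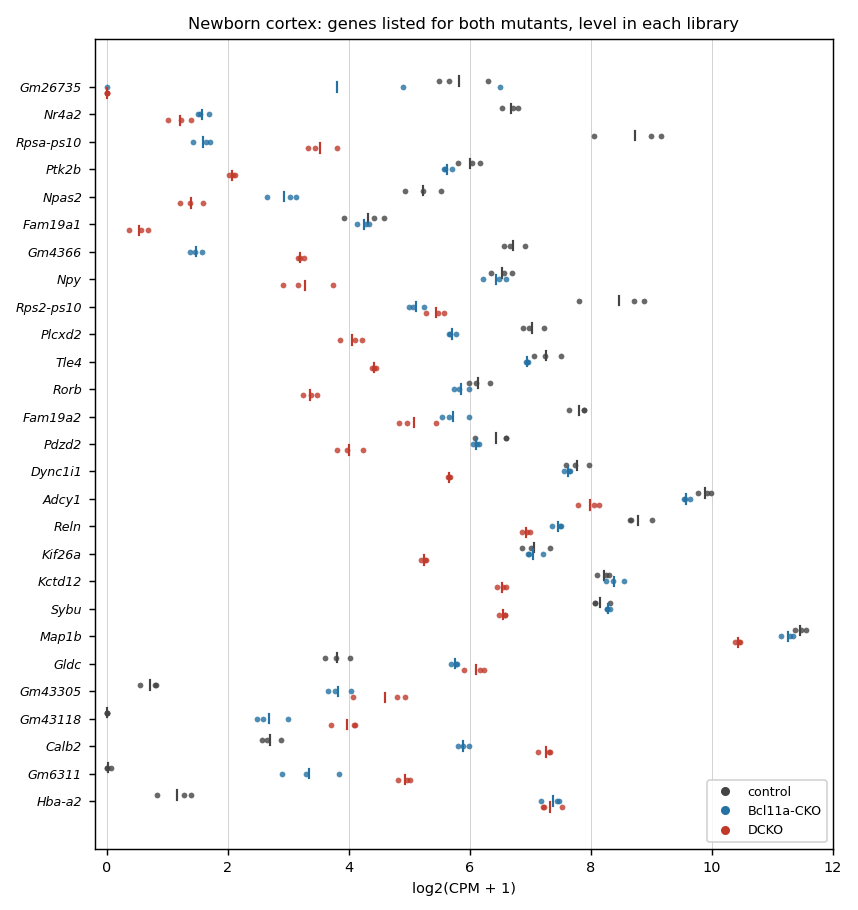
Level in each library, as log2(CPM + 1) on the x axis, of genes reported here that passed the test in the DCKO and are also listed for the Bcl11a-CKO, with a tick at each group mean (grey control, blue Bcl11a-CKO, red DCKO, 3 libraries each). Blue points lie by the grey ones for Fam19a1, Npy and Sybu and by the red ones for Nr4a2 and Hba-a2, and the 3 blue points of Gm26735 are spread from 0 to above 6.

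Promoter windows are shown for genes from both ends of the differences, chosen after their values were seen. RefSeq windows on GRCm38.p6, from 250 bases before to 50 bases after a transcript start, were matched to 40 of the 65 genes. The hexamer TGACCA, known as a sequence that BCL11A binds at the human gamma-globin genes, was searched on both strands, where its complement reads TGGTCA, and this search was also added after seeing the data. It occurs in a window of 6 of the 40 genes (15%), Npas2, AI593442, Neto2, Kcnd3, Ltbp3 and Gm43305, against 12.3% of 5139 tested genes with a window and 13.6% of all 32851 windows, so its share is near the background. Each window is 300 bases, written 5′ to 3′ on the gene's strand, with the hexamer in capitals. The first belongs to Npas2, which fell (chr1:39194022-39194321, plus strand), the second to Kcnd3, which rose (chr3:105451640-105451939, plus strand), and the third, without the hexamer, to Nr4a2 (chr2:57123954-57124253, minus strand).
Npas2: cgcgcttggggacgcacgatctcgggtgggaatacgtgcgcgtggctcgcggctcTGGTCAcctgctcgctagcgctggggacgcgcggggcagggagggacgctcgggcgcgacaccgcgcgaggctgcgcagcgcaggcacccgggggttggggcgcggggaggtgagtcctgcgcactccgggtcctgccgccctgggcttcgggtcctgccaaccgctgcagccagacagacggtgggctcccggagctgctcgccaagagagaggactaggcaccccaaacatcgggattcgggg
Kcnd3: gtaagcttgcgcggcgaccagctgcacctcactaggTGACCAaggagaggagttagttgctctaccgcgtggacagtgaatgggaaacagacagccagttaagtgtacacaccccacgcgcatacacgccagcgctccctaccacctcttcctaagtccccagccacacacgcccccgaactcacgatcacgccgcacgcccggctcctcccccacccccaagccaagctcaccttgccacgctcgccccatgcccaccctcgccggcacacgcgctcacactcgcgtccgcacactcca
Nr4a2: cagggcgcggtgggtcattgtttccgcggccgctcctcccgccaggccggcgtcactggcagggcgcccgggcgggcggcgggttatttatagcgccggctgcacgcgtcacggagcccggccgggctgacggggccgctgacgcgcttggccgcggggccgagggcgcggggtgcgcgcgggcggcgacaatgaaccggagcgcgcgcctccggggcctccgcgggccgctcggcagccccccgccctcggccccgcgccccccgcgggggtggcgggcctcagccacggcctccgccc
The hexamer starts at base 56 of the Npas2 window, as the complement, and at base 37 of the Kcnd3 window. GC content is 72.7% in the Npas2 window, 64.0% in that of Kcnd3 and 81.7% in that of Nr4a2. A match is a description of the letters and not a binding site, and the absence of the hexamer says only that these letters are not in the window.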

How the data were processed

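Bulk RNA of P0 cortex (3 control, 3 DCKO) was read from a table of CPM per library that the authors deposited, with log2 values (average log2 CPM and log2 fold change) that the authors computed and that were not used. For the embryo the authors deposited whole-number gene counts (18 libraries, 4313142 to 7220708 counts). Tools named by the submitters' processing notes, with no roles, are edgeR, StringTie 1.3.0 and HISAT2 2.0.4, on build mm10. Counting settings were not given in the sources used here.

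At P0, log2(CPM + 1) of listed autosomal genes averaging 1 CPM or more was tested by limma 3.58.1 with a trend (R 4.3.3), so differences of low genes are understated. Of the CPM values 99.994% were whole reads (tolerance 0.00051 CPM), and edgeR on these reads called 65 genes, all 65 of them also called by limma. Embryonic counts were fitted by edgeR 4.0.16 (quasi-likelihood, TMM, filterByExpr, 6 groups, 16 units), with E15.5 libraries R and L of the same number summed. DESeq2 1.42.0 served as an alternative. P-values were Benjamini-Hochberg adjusted over all genes tested, at 0.05. ± is the SD of a mean and the SE of a log2 difference. Gene positions come from GENCODE M21 (GRCm38). Embryonic means are CPM after TMM scaling over all genes.

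Named genes are those past the P0 test, with every library given for the 15 largest falls and the rises at 5 CPM or more, and list members with the highest level. The members and lists were chosen with earlier results of these data known. The sources do not tie libraries to animals, so the p-values reflect sample spread that may be partly technical. DCKO replicates 2 and 3 lay closest, with a chi-square per gene of 1.95 and a correlation of 0.9955. DCKO replicate 1 differed from them by a chi-square of 8.77 and 9.48, and controls differed among themselves by 17.2 to 25.6. Whether DCKO replicates 2 and 3 are separate animals was not tested. The SDs and SEs of the DCKO may therefore understate the spread between animals. Some genes within the counts are not reported here by name. No libraries held identical values. The fits were checked on simulated data.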

Additional observations from a re-analysis of the deposited data

Results flagged for a closer look

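Among the 59 genes past the P0 test that could be tested in the embryo, the log2 difference between DCKO and control changed from E13.5 to E15.5 in 20 by edgeR's interaction test, against 3.87% of all genes tested. The values below are the E15.5 difference minus the E13.5 difference. Ephb1 differed by -3.75 (0.81 at E13.5 and -2.94 at E15.5, adjusted p = 2.16e-07) and Sybu differed by -2.97 (-0.57 at E13.5 and -3.54 at E15.5, adjusted p = 0.00048). Kctd12 differed by -2.73 (-0.52 at E13.5 and -3.25 at E15.5, adjusted p = 4.85e-05) and Tle4 differed by -2.55 (0.12 at E13.5 and -2.43 at E15.5, adjusted p = 2.72e-06). Kif26a differed by -2.47 (0.37 at E13.5 and -2.09 at E15.5, adjusted p = 2.39e-06) and Rorb differed by -2.39 (0.30 at E13.5 and -2.09 at E15.5, adjusted p = 0.000974). Nr4a2 differed by -2.28 (0.58 at E13.5 and -1.70 at E15.5, adjusted p = 0.00146) and Pdzd2 differed by -2.21 (-0.45 at E13.5 and -2.66 at E15.5, adjusted p = 0.000314). Lpl differed by -2.18 (-1.60 at E13.5 and -3.78 at E15.5, adjusted p = 0.000196) and Foxp2 differed by -1.65 (0.31 at E13.5 and -1.34 at E15.5, adjusted p = 0.0224). Mef2c differed by -1.55 (-0.61 at E13.5 and -2.16 at E15.5, adjusted p = 0.027) and Neto2 differed by -1.38 (-0.25 at E13.5 and -1.63 at E15.5, adjusted p = 4.85e-05). Foxp1 differed by -1.35 (-0.39 at E13.5 and -1.74 at E15.5, adjusted p = 0.0018) and Rgma differed by -0.94 (-0.22 at E13.5 and -1.16 at E15.5, adjusted p = 0.0221). Plcxd2 differed by -0.88 (-0.19 at E13.5 and -1.06 at E15.5, adjusted p = 0.00199) and Reln differed by -0.74 (-0.95 at E13.5 and -1.70 at E15.5, adjusted p = 0.0409). Map1b differed by -0.50 (-0.56 at E13.5 and -1.06 at E15.5, adjusted p = 0.0119). In these 17 genes the DCKO was lower relative to the control at E15.5 than at E13.5, and Ephb1 alone had passed in the opposite direction at E13.5.

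The other 3 genes moved the opposite way. Fgfr1 differed by 0.74 (0.10 at E13.5 and 0.84 at E15.5, adjusted p = 0.000504). Ltbp3 differed by 1.24 (-0.05 at E13.5 and 1.18 at E15.5, adjusted p = 0.035). Nt5dc2 differed by 1.70 (0.44 at E13.5 and 2.14 at E15.5, adjusted p = 1.19e-06). E13.5 and E15.5 libraries are other animals, and the age test assumes that the E15.5 control, with 2 units, varies like the other groups.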

How the results depend on the processing

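The P0 count of 65 genes was 65 under pseudocounts of 0.1 and 5 CPM, no filter, a filter at 5 CPM, limma without the trend, TMM scaling, and edgeR and DESeq2 on recovered reads. It was 70 with all listed genes, 57 with protein-coding genes only (added after seeing the data) and 65 to 68 when 1 library was left out. Each called gene kept its direction and its side of the threshold in all 1097 single-gene refits, but sizes moved for genes low in 1 group. No listed gene lay near the threshold in the main fit. Limma adjusted p was at most 0.000194 among genes that passed and at least 0.623 among the others. The omission of genes by p-value therefore made a stable count nearly certain, and the refits are no test of robustness. With a pseudocount of 5 CPM, Nr4a2 was at -4.08, Hs3st4 at -3.53, Ptk2b at -3.05, Foxp2 at -2.91, Nxph3 at -2.70, Npas2 at -2.64, Rxfp1 at -2.53, Fam19a1 at -2.13, Calb2 at 3.90, Hba-a2 at 4.71 and Cldn1 at 2.40 (log2). With 0.1 CPM, Nr4a2 was at -6.18, Rxfp1 at -5.23, Fam19a1 at -5.12 and Hba-a2 at 6.91. The E13.5 and E15.5 counts of 16 and 39 ranged over 13 to 18 and 38 to 39 when 1 library was left out. The comparison of DCKO with Bcl11a-CKO moved most: 261 genes passed with all libraries, and 24 to 199 when 1 was left out, namely 28 and 24 without DCKO replicates 2 and 3, and 30, 29 and 35 without Bcl11a-CKO replicates 1 to 3. The cause was not tested. With a replicate block, 65 genes passed against the control and 239 between the mutants. Same-numbered P0 libraries did not deviate together (correlations -0.386, -0.398 and 0.049), and not every library correlated best with its own number. With 3 libraries in each group, these values cannot show whether a shared number marks a shared litter or batch. Depth limits genes at a few reads, and genes missing from the P0 table by their p-value limit every P0 count.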
